A study of Rattus norvegicus with 6 samples.

Results

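The miR-340 hairpin gives rise to a pair of mature microRNAs, miR-340-5p and miR-340-3p, and both were listed in the count table, as rno-miR-340-5p and rno-miR-340-3p, so that 2 of 764 mature rat miRNAs are described here. They were picked by name, as a hairpin whose arms were already known from these data to differ between diabetic and control libraries in opposite directions. Their differences between the groups are therefore given as a description, with no p-value of their own, and whether a fit over all miRNAs called them is stated only as part of that description. The libraries were made from small extracellular vesicles, which are particles wrapped in membrane and shed by cells, purified from 2 ml of plasma of male wild-type Sprague-Dawley rats obtained at 6 to 8 weeks of age. The 3 control libraries, C1, C2 and C3, came from control rats, and no vehicle injection is stated for them. The 3 diabetic libraries, DM1, DM2 and DM3, came from rats diabetic for 8 weeks after an intraperitoneal injection of streptozotocin at 65 mg/kg given while fasting. Streptozotocin kills the beta cells, which make insulin, so it models a lack of insulin and not insulin resistance, and rats entered the diabetic group with a fasting glucose above 11.1 mmol/L at 1 week. Nothing in the labels says whether each library came from its own animal or from a pool, and the spread between libraries may in part be technical.

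A miRNA gene is transcribed as a long precursor that folds into a hairpin, and the enzymes Drosha and Dicer cut from it a short duplex of a 5p and a 3p strand. One strand is loaded into an Argonaute protein, where its seed, bases 2 to 8, pairs with messenger RNAs that it represses, and the other strand is mostly degraded. Where both strands come from 1 transcript, their ratio is known to depend on steps after transcription, such as strand loading and the stability of each strand. The strand with the more weakly paired 5′ end is loaded more often. The gene of miR-340, annotated in GRCr8 as Mir340-1, lies in an intron of Rnf130, which encodes a ring finger ubiquitin ligase. Rnf130 was the 1 gene that spanned it in this annotation. Whether a further gene copy adds to the mature counts was not tested. In human cancer cells miR-340 has been described as a repressor of the receptor kinase MET and of the pigment cell transcription factor MITF.

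The arms are shown first because they differ in the part that selects targets and in the part that bears on strand loading. The sequences are those of RefSeq on GRCr8, written 5′ to 3′, with the seed in capitals in the mature strands and both mature strands in capitals in the hairpin.
miR-340-5p: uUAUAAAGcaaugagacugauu
miR-340-3p: uCCGUCUCaguuacuuuauagcc
miR-340 hairpin: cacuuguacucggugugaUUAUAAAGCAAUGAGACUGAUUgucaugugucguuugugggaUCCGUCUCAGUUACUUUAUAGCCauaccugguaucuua

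The 5p strand is 22 bases long with 27.3% G and C, and the 3p strand is 23 bases long with 43.5% G and C. The seeds, UAUAAAG in 5p and CCGUCUC in 3p, have different base makeup, and no other rat miRNA in the table of sequences shared either of them, also not over bases 2 to 7. The nearest other mature sequences were 9 edits away from each strand, miR-142-5p and miR-410-3p for 5p and miR-149-5p and miR-338-3p for 3p. In the predicted minimum energy fold of the 98-base hairpin, at -32.3 kcal/mol, 16 bases of the 5p strand paired with the 3p strand. Of the first 4 bases, 4 were A or U in miR-340-5p and 1 in miR-340-3p. In the fold, however, all 4 of these bases were paired in miR-340-5p and 3 of 4 in miR-340-3p, so the count of paired bases and the A and U content did not point to the same strand as the more weakly paired one. The pairs were U-G, U-A, A-U and U-A at the 5p start. At the 3p start they were U-A, C-G and G-C, with a C unpaired. The count of paired bases takes no account of the kind of pair.

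Counts of the 5p strand were 874 in C1, 540 in C2 and 451 in C3, and 1461 in DM1, 1787 in DM2 and 2317 in DM3. Counts of the 3p strand were 366, 205 and 181 in the controls and 165, 116 and 250 in the diabetic libraries, in the same order. The libraries held 6254077 to 8930730 miRNA counts each, so the arms were measured well above the limit of 0.336 to 0.48 CPM that a count of 0 would allow, where CPM are counts as parts of each library's total, scaled to 1e+06. The 5p strand was the more abundant arm in 6 of 6 libraries.

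Levels were compared as normalized CPM, which are CPM divided by a factor from the trimmed mean of M values (TMM), a scaling that assumes that most miRNAs do not differ between libraries. miR-340-5p stood at 122 normalized CPM in C1, 88.3 in C2 and 98.3 in C3, and at 153 in DM1, 185 in DM2 and 246 in DM3. All 3 diabetic libraries lay above all 3 controls, and the control mean of 103 ± 17.3 compared with a diabetic mean of 195 ± 47.1 normalized CPM (± SD, n = 3 each). The log2 fold change of diabetic over control was 0.92 (SE 0.35), a 1.89-fold higher level. Groups without overlap and with a higher diabetic level were found for 13.3% of the 362 miRNAs tested.

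miR-340-3p stood at 51.1 normalized CPM in C1, 33.5 in C2 and 39.4 in C3, and at 17.3 in DM1, 12 in DM2 and 26.5 in DM3. Here all 3 diabetic libraries lay below all 3 controls, with DM3 the nearest to them. The control mean was 41.3 ± 8.93 and the diabetic mean 18.6 ± 7.34 normalized CPM (± SD, n = 3 each). The log2 fold change was -1.15 (SE 0.40). Groups without overlap and with a lower diabetic level made up 14.6% of the miRNAs tested.

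**Figure D1:**
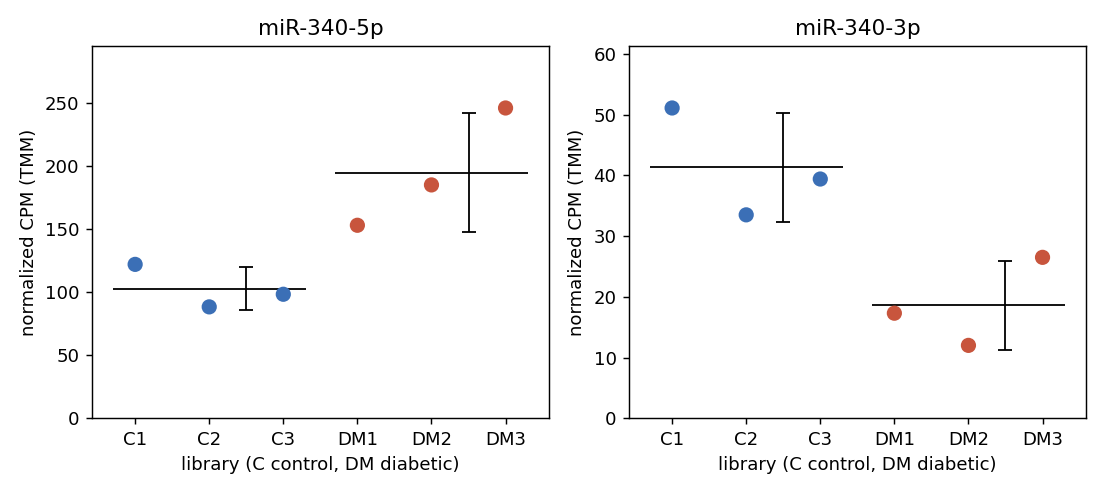
Level of each miR-340 arm in normalized CPM (TMM scaling, linear axes from 0) in the 3 control (C, blue) and 3 diabetic (DM, red) libraries. Points are libraries, horizontal lines are group means and bars are SD: the diabetic libraries lie above the controls for 5p, from 153 to 246, and below them for 3p, from 12 to 26.5.

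Neither arm was among the miRNAs called by edgeR's quasi-likelihood test at a Benjamini-Hochberg adjusted p under 0.05, which were 1.66% of those tested (6 of 362, 2 higher and 4 lower). With library size as the only scaling miR-340-5p was among 49 calls (13.5%), of which 45 were higher. In DESeq2 miR-340-3p was among 42 (11.6%). By the size of its log2 fold change miR-340-5p was number 57 from the top of the 362, and miR-340-3p number 39 from the bottom. In mean level they were number 109 and number 183. The authors' deposited table lists log2 fold changes of 1.48 for miR-340-5p and -0.60 for miR-340-3p, with false discovery rates of 0.0185 and 0.492.

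The 5p to 3p ratio does not depend on how libraries are scaled, since both counts come from the same library. It was 2.39 in C1, 2.63 in C2 and 2.49 in C3. It was 8.85 in DM1, 15.4 in DM2 and 9.27 in DM3. The controls were nearly identical, the diabetic libraries were all higher, and DM2 was the highest. The mean log2 ratio was 1.32 ± 0.071 in the controls and 3.43 ± 0.443 in the diabetic group (± SD, n = 3 each), a difference of 2.11, or 4.32-fold. Among 95 hairpins with both arms tested, 18.9% had a higher ratio in every diabetic than in every control library, and the same share had a lower one.

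Expressed as a share, miR-340-5p made up 70.5% of the hairpin's counts in C1 (95% exact Clopper-Pearson interval 67.9 to 73.0), 72.5% in C2 (69.1 to 75.7) and 71.4% in C3 (67.7 to 74.9). In DM1, DM2 and DM3 the share was 89.9% (88.3 to 91.3), 93.9% (92.7 to 94.9) and 90.3% (89.0 to 91.4). These intervals cover counting error only, as PCR copies are not independent molecules. The 3 control intervals overlap each other, whereas that of DM2 does not overlap those of the other diabetic libraries. The control SD of 0.071 on the log2 scale lay below the counting error of a single library, which was 0.09 to 0.13 in the controls. A smaller control SD was found for 3 of the other hairpins, and the median over all 95 was 0.59. In the diabetic group the miR-340 SD was larger than that of 54 hairpins, with a median of 0.37.

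**Figure D2:**
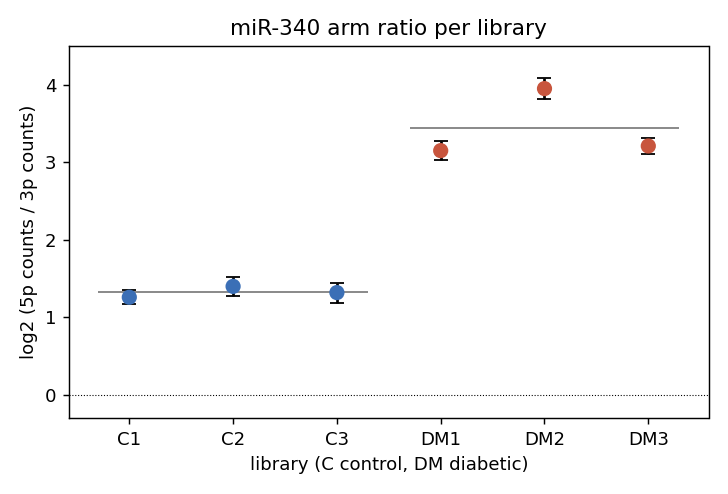
Log2 ratio of miR-340-5p to miR-340-3p counts in each control (C, blue) and diabetic (DM, red) library, with bars for the counting standard error and grey lines for the group means. The controls lie between 1.26 and 1.40 and the diabetic libraries between 3.15 and 3.95.

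The counts of both arms together were 1240 in C1, 745 in C2 and 632 in C3, and 1626 in DM1, 1903 in DM2 and 2567 in DM3. In normalized CPM the sum of the arms ran from 122 to 173 in control and from 170 to 272 in diabetic libraries, so the groups overlapped slightly. Unscaled for library composition the sum averaged 118 ± 21.1 CPM in the controls and 258 ± 44.6 in the diabetic group (± SD, n = 3 each), without overlap. Scaled by library size alone, 118 of the 362 tested miRNAs were likewise higher in the diabetic group without overlap. In these bulk samples a different number of vesicles from a cell type and a different amount of RNA per vesicle cannot be told apart.

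How the ratio difference of 2.11 was divided between a higher 5p and a lower 3p strand depended on the scaling. The TMM factors themselves differed between the groups, at 0.702 to 0.978 in control and 1.12 to 1.27 in diabetic libraries. With library size only, the log2 fold changes were 1.48 (SE 0.36) for 5p and -0.60 (SE 0.40) for 3p, and the median over all tested miRNAs was 0.61, against 0.02 with TMM. miR-340-3p then stood at 41, 32.8 and 27.7 CPM in control and 22 in DM1, 15.3 in DM2 and 29.7 CPM in DM3, so that DM3 lay above C3. With relative log expression (RLE) factors the values were 0.89 (SE 0.33) and -1.18 (SE 0.39), around a median of -0.02. With upper quartile factors they were 0.67 (SE 0.39) and -1.39 (SE 0.45), around a median of -0.28, and the 5p groups overlapped. The 5p value was above 0 and the 3p value below 0 under each of these 4 scalings.

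**Figure D3:**
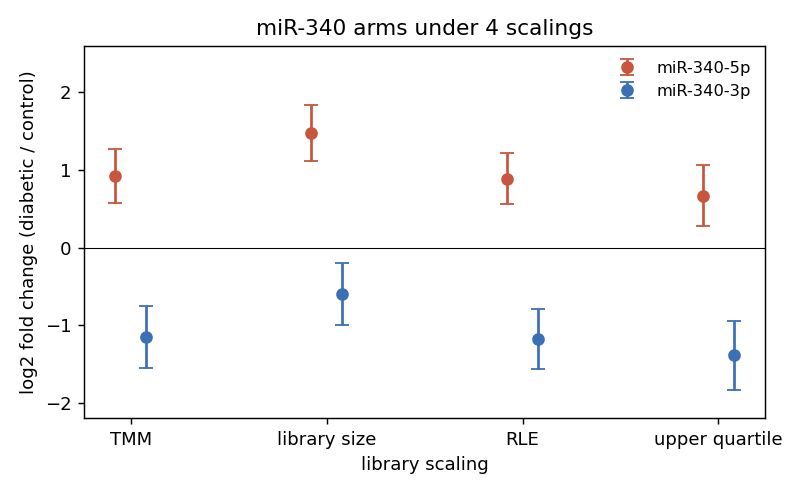
Log2 fold change (diabetic over control) of miR-340-5p (red) and miR-340-3p (blue) in the edgeR fit under 4 library scalings, with bars for the standard error, n = 3 libraries a group. The 5p values run from 0.67 to 1.48 and the 3p values from -1.39 to -0.60, on opposite sides of 0 under each scaling.

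The other hairpins show how common such a shift of arms was. Of the 95, 49 had a higher ratio in the diabetic group and 46 a lower one, with a median difference of 0.02 and a median size of 0.81 on the log2 scale. The size was above 1 in 41 hairpins and above 2 in 11. By size in either direction the difference of miR-340 was number 11, and among increases it was number 5. The 4 above it were miR-127 at 3.62, miR-674 at 2.66, miR-145 at 2.38 and miR-466b at 2.22. In miR-127, a hairpin of the imprinted Dlk1-Dio3 cluster, the 5p strand had 11, 0 and 0 counts in the controls, and the lowest 5p count of miR-674 was 5. The rarer arm of miR-340 had at least 116 counts in every library. Among the 42 hairpins whose arms each averaged at least 100 counts, miR-340 was number 2 among increases, after miR-145, and number 3 by size.

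The hairpin of miR-145, a smooth muscle miRNA, had counts of at least 665 for either arm. Its log2 ratio was 0.90 in C1, -0.12 in C2 and -0.17 in C3 and 3.63 in DM1, 1.91 in DM2 and 2.22 in DM3, again without overlap. Its controls were more scattered than those of miR-340, with an SD of 0.60. Its log2 fold changes were 1.68 (SE 0.45) for 5p and -0.71 (SE 0.36) for 3p. The largest differences in the other direction were those of miR-193b at -2.47, miR-23b at -2.40, miR-23a at -2.39, miR-132 at -2.34 and miR-130b at -2.27. In each of these 5 the ratio was lower in every diabetic than in every control library. The lowest count of an arm was only 17, 16, 11, 8 and 21 in the same order. The 3p strands of miR-23a and miR-23b have near-identical sequences and can share reads.

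The arms had log2 fold changes of opposite sign in 43 of the 95 hairpins. In 24 of them, or 25.3% of all, the 5p strand was above 0 and the 3p strand below 0, as in miR-340. A stricter form, in which the 5p strand was higher and the 3p strand lower without overlap of the groups in normalized CPM, was met by 4.21% of hairpins, and these 4 were miR-340, miR-145, miR-148a and miR-503. The reverse pattern was met by 1.05%, which was miR-193b alone. For miR-340 the stricter form held with TMM and RLE factors. Its 3p groups overlapped with library size only, and its 5p groups with upper quartile factors. miR-148a and miR-503 were picked out after their values were seen. In miR-148a, with a mean log2 ratio of -12.53, the fold changes were 0.45 for 5p and -0.85 for 3p. In miR-503, of the miR-322 cluster, they were 0.68 and -0.69.

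**Figure D4:**
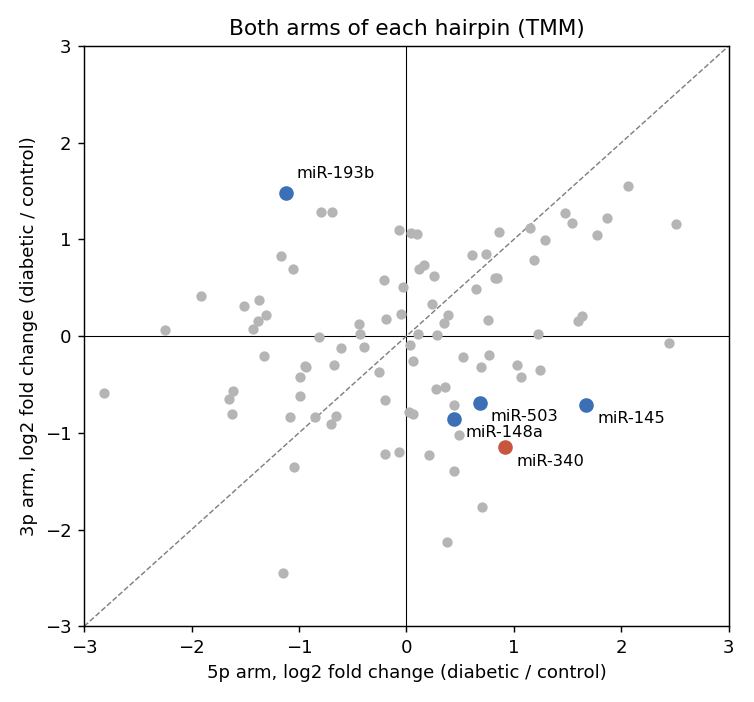
Log2 fold change (diabetic over control, TMM) of the 5p arm against that of the 3p arm for the 95 hairpins with both arms tested, each point 1 hairpin and the dashed line equal change. miR-340 (red) lies at 0.92 and -1.15, and the named blue hairpins are the other 4 whose arms were separated between the groups in opposite directions.

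Over all 6 libraries the mean log2 ratio of miR-340 was 2.38, so its strands were closer to balance than those of most hairpins, for which the median size was 3.51. The hairpins of at least its summed level with the nearest mean ratio were miR-30a at 2.21, miR-99b at 3.11, miR-125a at 3.34, miR-145 at 1.39 and miR-150 at 1.36. Their ratio differences were 1.0, -0.46, -0.23, 2.38 and 1.32, so a similar balance of strands came with differences of either sign. miR-30a, whose strands were both abundant, had log2 ratios of 1.49 in C1, 1.90 in C2 and 1.76 in C3, and 3.0 in DM1, 2.27 in DM2 and 2.86 in DM3, also without overlap.

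The A and U content of the strand ends was compared over the 81 hairpins for which both sequences were matched. In 25 of these the 5p strand had more A and U among its first 4 bases than the 3p strand, and 5p was the more abundant arm in 15 of them. Where the 3p start was richer in A and U, 5p was the more abundant arm in 15 of 37. miR-340, with an excess of 3 bases, belonged to the former. An excess of at least 3 was found in 3 hairpins, and miR-340 was the 1 of them in which 5p was the more abundant arm. Across these hairpins the excess and the mean log2 ratio had a Pearson correlation of 0.17 and a Spearman correlation of 0.20. These hairpins come from the same 6 libraries and are no independent replicates. The difference between the groups had a median of -0.02 in the 25 hairpins, which include miR-340, and -0.23 in the 37. In the 19 hairpins with equal A and U content it was 0.16. The excess and this difference had a Pearson correlation of 0.25.

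Other miRNAs known to lie within host genes were set beside miR-340, since such miRNAs are made from the transcript of a protein-coding gene. Of 46 listed strands from 23 such hairpins, 38 were tested, and 1 of them was called, miR-532-5p, which rose, where 1.66% of all tested miRNAs were called. With library size only 10 of the 38 were called, where 13.5% of all were. Of the 38, 29 lay above 0 and 9 below, and the median was 0.48, against 0.02 over all miRNAs. It was 0.21 with upper quartile factors and 1.05 when libraries were scaled by size alone, against -0.28 and 0.61. Both strands were tested in 16 of these hairpins, and 3 had strands with fold changes of opposite sign, namely miR-340, miR-151 of the focal adhesion kinase gene Ptk2 and miR-106b of the replication helicase gene Mcm7, whose values of -0.05 and 0.23 lay within their SE of 0.34 and 0.32.

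The ratio was higher in diabetic libraries in 10 of the 16 and lower in 6, with a median difference of 0.23. Without miR-340 the differences ran from -1.11 in miR-342 to 1.79 in miR-151. miR-151 had log2 ratios of -13.71 in C1, -13.67 in C2 and -13.37 in C3, and -11.62 in DM1, -11.18 in DM2 and -12.59 in DM3, but its 5p strand had only 21 to 67 counts. miR-532, of the chloride channel gene Clcn5, had a difference of 1.43, with a higher 5p strand at a log2 fold change of 1.63 (SE 0.33) and a 3p strand at 0.21 (SE 0.34). miR-140, of the ubiquitin ligase gene Wwp2, had a difference of 0.91, with both strands above 0, at 1.78 (SE 0.43) and 1.04 (SE 0.50).

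The levels most like those of each arm over the 6 libraries were found by Pearson's r of log2 normalized CPM, which includes the difference between the groups and is given with no test. For miR-340-5p they were miR-6319 at 0.93, miR-345-3p at 0.92, miR-532-5p and miR-181c-3p at 0.91 and miR-26a-5p at 0.90. All 5 had a log2 fold change above 0, from 0.73 to 1.63. For miR-340-3p they were miR-330-5p at 0.97, let-7d-3p at 0.96, miR-184 and the brain-enriched miR-128-3p at 0.91 and miR-128-2-5p at 0.89, all with a log2 fold change below 0, from -1.78 to -0.85. The correlation between the arms of miR-340 themselves was -0.57. In each of the 5 nearest to miR-340-3p, as in both arms of miR-340, DM3 was the highest diabetic library. So it was in those nearest to miR-340-5p, except miR-532-5p. miR-128-3p stood at 9540 normalized CPM in DM1, 11300 in DM2 and 53000 in DM3, against 44500 to 78400 in the controls.

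Small RNA counts hold no marker that defines a vesicle, so the label could be checked only against miRNAs of blood cells and liver, which plasma preparations can carry. The summed level of 5 tested red cell strands of miR-451, miR-144 and miR-486 was 87400 to 187000 normalized CPM in control libraries. In diabetic libraries it was 40200 to 73000, without overlap and in the direction of miR-340-3p. Of all tested miRNAs 14.6% were lower without overlap. Scaled by library size alone the red cell sum was 51100 to 88400 CPM in the diabetic group and 70100 to 183000 CPM in the controls. The groups then overlapped. Of these strands 1 lay above 0 and 4 below, and the median was -0.22 with TMM and 0.31 when libraries were scaled by size alone. The 8 platelet strands, of miR-126a, miR-191a, miR-199a and miR-221, summed to 20700 to 25000 in control and 21200 to 26400 in diabetic libraries. Endothelial cells also hold miR-126a and miR-221, and fibroblasts miR-199a, so this sum is no measure of platelets alone. Of the log2 fold changes of these strands 6 lay above 0, and the 2 below were both arms of miR-191a, at -0.20 and -1.22. The highest were those of miR-199a, at 1.87 and 1.23. The 7 leukocyte strands summed to 4650 to 9020 and 8520 to 9050 normalized CPM, with 6 above 0 and 1 below. Scaled by library size alone, platelet strands summed to 15200 to 20200 CPM in the controls and 27000 to 30800 in the diabetic group, and leukocyte strands to 3260 to 7230 and 9770 to 11500, both without overlap and in the direction of miR-340-5p. That scaling raised most miRNAs, with a median log2 fold change of 0.61 over all tested. Of the 362, 118 were higher without overlap and 13 lower. The 6 liver strands summed to 39300 to 300000 and 45400 to 75600 normalized CPM, with 1 above 0 and 5 below, and overlapped under either scaling. Platelet strands had a median log2 fold change of 0.76 with TMM, 1.34 with library size only and 0.46 with upper quartile factors. For the leukocyte strands it was 0.35, 0.93 and 0.02, and for the liver strands -1.04, -0.43 and -1.29, in the same order of scalings. Under TMM, 0 of the 26 strands of the 4 lists were called in edgeR's quasi-likelihood test, where 1.66% of all tested miRNAs were. At an unadjusted p under 0.05 there were 8 of the 26, and 22.7% of all. DESeq2 called 4 of the 26 (miR-122-3p, miR-126a-5p, miR-199a-5p and miR-451-5p) and 11.6% of all, limma-voom 0 and 1.1% of all, and edgeR with library size only 3, all platelet strands, and 13.5% of all. The part of these cells in the miR-340 values was not tested.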

How the data were processed

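Per the labels' protocols, RNA was extracted with TRIZOL, ligated to adaptors, amplified, selected for 18 to 30 nucleotides and sequenced on an Illumina instrument. Per the submitters' processing notes reads were handled against rn6. The aligner, counting tool and miRNA release are not given in the sources used here. The authors deposited whole-number counts per mature miRNA in 2 tables, equal in all 4584 cells. The authors' second table adds CPM, recomputed within 0.006, a log2 fold change of mean CPM, and p-values of a test that its name gives as edgeR and the series text as DEGseq. Counts as deposited were used here. filterByExpr (minimum count 10, minimum total 15) kept 362 of 764 miRNAs. Diabetic and control libraries were compared in edgeR 4.0.16 (R 4.3.3) by the quasi-likelihood test with TMM factors, two-sided, on 3 libraries against 3, with Benjamini-Hochberg adjustment at 0.05. It was tested on simulated data with equal numbers of raised and lowered miRNAs, which were not built to copy the TMM factors seen here. Standard errors were derived from each log2 fold change and its F statistic. Hairpins were paired by name, and their ratios used a pseudocount of 0.5, except that miR-340's own values used none. Likeness used log2 CPM with a prior count of 2. RefSeq (GRCr8) sequences matched 689 listed miRNAs and both arms, and hairpins were folded with RNAfold (ViennaRNA 2.7.2).

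The members and lists were chosen with earlier results of these data known. The named miRNAs are the members, the 5 most alike to each, the 5 hairpins with the largest ratio difference in each direction, the 5 nearest in mean ratio, and the host gene, red cell, platelet, leukocyte and liver lists. Alternatives were DESeq2 1.42.0, limma-voom (limma 3.58.1), other scalings, no filter, a replicate block and leaving out each library.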

Additional observations from a re-analysis of the deposited data

How the results depend on the processing

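The miR-340 ratio difference of 2.11 was 2.11 with a pseudocount, 2.08 with counts summed over each group and 1.86 to 2.26 with 1 library left out. Among increases it was number 5 over 95 hairpins, number 2 over 42 with at least 100 mean counts an arm, number 4 with a pseudocount of 5, and number 4 to 7 with 1 library left out. By size in either direction it was number 11, number 3 and number 9, and number 4 to 20 with 1 library left out. With library size only, the log2 fold changes were 1.48 for miR-340-5p and -0.60 for miR-340-3p. They stayed within 1 SD of the reported 0.92 and -1.15 under the other 12 alternatives each, with ranges of 0.76 to 1.07 and -1.45 to -0.92 when 1 library was left out.

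The number of miRNAs called was 6. It was 49 with library size only, 2 with upper quartile factors, 4 with RLE, 9 with no filter, 42 with DESeq2 and 4 with limma-voom, and 0 to 49 with 1 library left out. It was 49 without control replicate 1 and 22 without diabetic replicate 3. Without any other single library it was 0 in edgeR's quasi-likelihood test, with 57 to 59 at an unadjusted p under 0.05. The cause was not tested. The share of miRNAs whose groups did not overlap was 27.9% with TMM and 29.8% to 36.2% with the other scalings.

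With the replicate number as a block the fold changes were 0.91 and -1.21, the ratio difference was 2.11, and 57 miRNAs were called, with neither miR-340 arm among them. Deviations of same-numbered libraries correlated at 0.281, 0.00122 and 0.246 for numbers 1, 2 and 3, and 4 of 6 libraries correlated best with their own number. The main fit did not take the numbers as pairs, and whether they mark a shared batch was not tested. Same-numbered libraries differed in the log2 ratio by 1.89, 2.55 and 1.90. Depth limits the 3p strand most, with 116 counts in its lowest library.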
